A study of Mus musculus with 9 samples.

Results

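The 9 genes described here encode brakes on MAP kinase signaling: the dual-specificity phosphatases *Dusp1*, *Dusp2*, *Dusp4*, *Dusp5*, *Dusp6* and *Dusp10*, the Sprouty genes *Spry1* and *Spry2*, and the Sprouty-related gene *Spred1*. They were chosen by name from the family, with earlier results of these data known. All 9 were found by Ensembl identifier among the 53801 genes listed for every library, of which 25402 had at least 1 count. Bulk RNA-seq had been done on monocytes/macrophages, gated as CD11c-Ly6G-CD11b+CD45high, from male C57BL/6J mice 9 weeks old. The 3 groups were sham blood from sham-operated mice, stroke blood, and stroke brain, the latter being the ipsilesional hemisphere, with 3 libraries in each group. In the stroke model (dMCAO), the distal middle cerebral artery and the common carotid artery of the left side were occluded permanently, with stroke blood and brain taken 5 days later, and the sources used here give no day for sham blood. Each blood library came from 1 mouse and each brain library from a pool of 5 mice. Brain cells were released with a heated enzymatic kit and a Percoll gradient, whereas blood cells came from a Ficoll gradient, so tissue and handling cannot be told apart in any comparison of brain with blood. In such bulk libraries, fewer cells that express a gene and less RNA per cell cannot be told apart either.

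MAP kinases (ERK, p38 and JNK) are switched on by phosphorylation of a threonine and a tyrosine in their activation loop, and dual-specificity phosphatases remove both phosphates. Many of these phosphatase genes are themselves transcribed in response to MAP kinase activity, which makes them negative feedback regulators. Sprouty and Spred proteins act higher in the cascade, where they restrain the step from growth factor receptors and Ras to Raf. In monocytes and macrophages, *Dusp1* is best known for limiting p38 and JNK signaling, and with it cytokine production, after Toll-like receptor stimulation.

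Of the phosphatases, the products of *Dusp1*, *Dusp2*, *Dusp4* and *Dusp5* are inducible and reside in the nucleus, the product of *Dusp6* is cytoplasmic and selective for ERK, and that of *Dusp10* prefers p38 and JNK. In GRCm38 coordinates, as deposited and counted from 1, *Dusp1* lies at chr17:26505590-26508519 on the minus strand, *Dusp2* at chr2:127336159-127338376, *Dusp4* at chr8:34807297-34819894, *Dusp5* at chr19:53529109-53542431, *Dusp6* at chr10:99263231-99267489 and *Dusp10* at chr1:184013302-184075636. *Spry1* lies at chr3:37639947-37644598, *Spry2* at chr14:105891947-105896819 on the minus strand and *Spred1* at chr2:117121374-117182279, and the genes whose strand is not named are on the plus strand.

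Because 7 of these genes were upregulated in the brain relative to stroke blood, the sequence just upstream of their RefSeq start sites was read for 8 of them from RefSeq promoters (GRCm38.p6), with *Dusp4* the exception. The motifs were chosen with results in view, and a match is a description of letters, not of a bound site. *Dusp1* and *Dusp5*, both higher in the brain, and *Dusp6*, which was lower, are printed 5′ to 3′ on the strand of the gene, without bases in exons of coding transcripts. Capitals mark the cAMP response element TGACGTCA, its core TGACG or CGTCA, and CArG boxes, the motif of serum response factor.
Dusp1, chr17:26508520-26508722, minus strand: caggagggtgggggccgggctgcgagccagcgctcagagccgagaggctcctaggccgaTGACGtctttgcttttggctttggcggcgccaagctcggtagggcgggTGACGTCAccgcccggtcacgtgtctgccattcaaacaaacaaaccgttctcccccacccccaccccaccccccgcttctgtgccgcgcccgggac
Dusp5, chr19:53528895-53529108, plus strand: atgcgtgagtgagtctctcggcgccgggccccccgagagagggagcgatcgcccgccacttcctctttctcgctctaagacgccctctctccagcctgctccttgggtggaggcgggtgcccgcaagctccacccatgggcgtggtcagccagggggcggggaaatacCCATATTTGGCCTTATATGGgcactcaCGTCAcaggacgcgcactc
Dusp6, chr10:99262981-99263230, plus strand: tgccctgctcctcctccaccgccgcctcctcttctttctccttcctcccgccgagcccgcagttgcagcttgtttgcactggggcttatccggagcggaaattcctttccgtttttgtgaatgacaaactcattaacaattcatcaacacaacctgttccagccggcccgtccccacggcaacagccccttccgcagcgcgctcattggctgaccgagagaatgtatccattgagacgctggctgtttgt

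The *Dusp1* window held a full cAMP response element 136 to 143 bases before the RefSeq start and a further TGACG 187 to 191 bases before it. In the *Dusp5* window, a pair of CArG boxes abutted each other, 63 to 72 and 73 to 82 bases before the start, followed by CGTCA 51 to 55 bases before it. None of the 7 motifs searched on both strands was in the *Dusp6* window (TGACGTCA, TGACG, the AP-1 site TGANTCA, the CArG box, the ETS site CCGGAAGT, the E-box CACGTG and the NF-kappaB site), and TGACG also lies within TGACGTCA. An E-box was found in the windows of *Dusp1* (121 to 126 bases before the start) and *Dusp2* (104 to 109). The windows of *Spry1*, *Spry2* and *Spred1*, all higher in the brain, and of *Dusp10* held none of the 7 motifs either. Of 32851 RefSeq promoter windows, 1.55% held TGACGTCA, 17.8% TGACG, 6.75% TGANTCA, 1.47% a CArG box, 2.88% CCGGAAGT, 6.02% CACGTG and 7.25% an NF-kappaB site.

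Total counts were 18475118 to 22623578 per library (median 20725974), and levels are given as counts per 1000000 counts (CPM) on TMM-normalized library sizes. The detection limit was set at 3 counts, which is 0.133 to 0.162 CPM of the raw totals. Replicates differed by more than sampling noise, and since sorted samples are single mice or single pools, p-values measure the spread between these libraries. The summed level of 12 monocyte markers was 14960 to 34130 CPM in blood and 8301 to 10460 CPM in the brain, while that of 8 microglia markers was 17.0 to 51.3 CPM in blood and 739, 1161 and 2495 CPM in brain replicates 1, 2 and 3, led by *Fcrls*. Dendritic cell markers (7 genes, led by *Cd209a*) summed to 111 to 356 CPM in blood and 705 to 932 CPM in the brain, and T and NK cell markers (10 genes, led by *Gzma*) to 254 to 911 and 653 to 1297 CPM. Erythroid markers (7 genes) summed to 14100 to 33870 CPM in 5 blood libraries, 1250 CPM in sham blood replicate 1 and 3.80 to 13.7 CPM in the brain, where *Slc4a1* was at 0. Border-associated macrophage markers (5 genes) summed to 11.3 to 26.0 CPM in blood and 51.8 to 178 CPM in the brain, with 4 of 4 tested upregulated against stroke blood. Of those 4 border-associated markers, *Folr2* passed the filter on low counts only through its brain libraries. Neutrophil markers (9 genes) summed to 462 to 3032 CPM in blood and 833 to 1380 CPM in the brain. Against stroke blood 5 of 7 neutrophil markers tested were upregulated and 1 was downregulated. The latter was *Mmp8* (log2 fold change -1.795), the highest of these markers in both blood groups. Against sham blood 2 of 8 tested were upregulated and 1 was downregulated. Of 8 neural markers, *Rbfox3* and *Mog* were at 0 in all brain libraries, whereas *Ttr*, which choroid plexus cells express at a high level, was at 85.7, 13.9 and 41.1 CPM in the brain and at 0 in every blood library (adjusted P = 0.000496 against stroke blood). *Ttr* too passed the filter on low counts only through its brain libraries, so its call was partly set by the filter. The part of these cell types in the levels of the 9 genes was not tested. Brain replicate 1 and sham blood replicate 1 stood apart from their groups, and results of the 9 genes that rest on them are given without them. For genes of the other lists, fits without a library are given only for brain versus stroke blood.

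To assess how feedback control of MAP kinases differed between macrophages in the poststroke brain and circulating monocytes, brain was first compared with stroke blood. A gene counted as a DEG when its log2 fold change was above 1 or below -1 and its P-value, adjusted over all genes tested, was below 0.05 (edgeR's quasi-likelihood test with Benjamini-Hochberg adjustment, used for every adjusted P-value below). Of the 9 genes, 7 were upregulated in the brain (*Dusp1*, *Dusp2*, *Dusp4*, *Dusp5*, *Spry1*, *Spry2* and *Spred1*), none was downregulated, and *Dusp6* and *Dusp10* were not DEGs. Over all 13189 genes tested, 13.1% were upregulated and 7.86% were downregulated. The median log2 fold change was 2.76 over the 9 genes and 0.06 over all genes. Since the 9 genes were chosen with earlier results known, their counts of DEGs here and below describe the list and do not test the family. Of 5 other family genes tested, 1 was upregulated. *Dusp4* and *Spry1* passed the filter on low counts only through their brain libraries, so their place in this count was partly set by the filter. Brain and stroke blood libraries did not overlap for 8 of the 9 genes, *Dusp10* being the exception, against 48.2% of all genes tested. The count of 7 was the same without brain replicate 1.

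**Figure D1:**
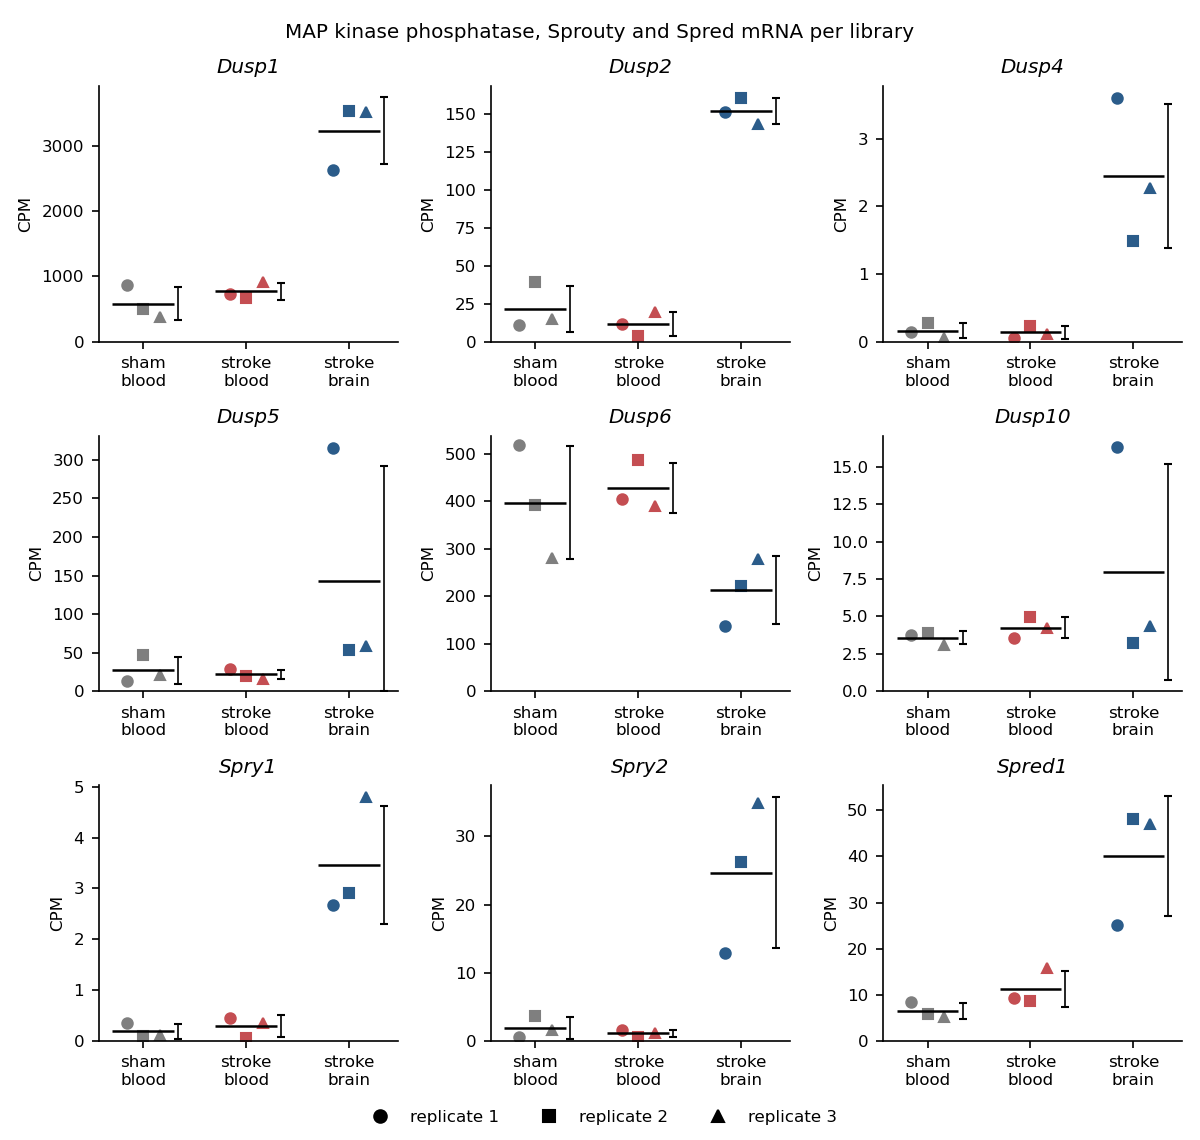
Level of each of the 9 genes in CPM (vertical axes, linear, from 0) in the 3 libraries of each group. Symbols mark replicates, horizontal lines the group mean and bars the SD (n = 3; the lower bar ends at 0 where the SD exceeds the mean). All brain libraries lie above all blood libraries for 7 genes and below them for *Dusp6*, and brain replicate 1 is far above the other brain libraries for *Dusp5* and *Dusp10*.

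*Dusp1* had the highest mean level per kb of exon in all 3 groups. Its level was 861, 505 and 373 CPM in sham blood replicates 1, 2 and 3, 727, 671 and 912 CPM in stroke blood, and 2638, 3533 and 3528 CPM in the brain. Every brain library thus exceeded every blood library, and both blood groups overlapped. The brain mean of 3233 ± 515 CPM (SD, n = 3) was 4.30-fold that of stroke blood in the edgeR fit (log2 fold change 2.11, SE 0.18, adjusted P = 7.39e-05). Leaving out each library in turn gave 1.98 to 2.24.

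*Dusp2*, whose product is a nuclear phosphatase that was first found in activated lymphocytes, was low in blood. Its level was 11.3, 39.2 and 14.7 CPM in sham blood, 11.9, 3.98 and 19.5 CPM in stroke blood, and 152, 161 and 144 CPM in the brain. The brain libraries lay close together (152 ± 8.57 CPM), while the blood libraries spread over a wide range below them. *Dusp2* rose by 3.74 on the log2 scale against stroke blood (SE 0.46, adjusted P = 0.000444). Of 10 T and NK cell markers, 3 were upregulated against stroke blood and 1 against sham blood. Their summed level overlapped between stroke blood (911, 354 and 315 CPM) and the brain (653, 1213 and 1297 CPM), and their part in the *Dusp2* level was not tested.

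*Dusp4*, which encodes a nuclear phosphatase closely related to that of *Dusp1*, was close to the detection limit in blood. It had 3, 6 and 1 counts in sham blood, 1, 5 and 2 counts in stroke blood, and 74, 36 and 52 counts in the brain (3.60, 1.49 and 2.27 CPM). All brain libraries were above all blood libraries (log2 fold change 4.13, SE 0.72, adjusted P = 0.00282 against stroke blood), and the brain level was 2.45 ± 1.07 CPM (SD, n = 3).

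*Dusp5*, an ERK-selective nuclear phosphatase gene, was 13.5, 47.1 and 20.9 CPM in sham blood and 28.5, 20.2 and 16.5 CPM in stroke blood. In the brain it was 316 CPM in replicate 1 but 53.7 and 58.9 CPM in replicates 2 and 3. The brain libraries were higher than all stroke blood libraries, although 1 pool held most of the counts. *Dusp5* was upregulated against stroke blood (log2 fold change 2.76, SE 0.65, adjusted P = 0.0115). Without brain replicate 1 the log2 fold change was 1.41 and the gene was still a DEG (adjusted P = 0.00333), whereas it was no longer a DEG without stroke blood replicate 2 (2.68, adjusted P = 0.0557) or 3 (2.55, adjusted P = 0.0656). Of its 2473 exonic bases, 547 overlap an antisense gene, and the strand setting of the counting is not given in the sources used here.

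*Dusp6*, the cytoplasmic ERK phosphatase gene, went the other way. Its level was 519, 392 and 281 CPM in sham blood, 404, 488 and 391 CPM in stroke blood, and 137, 222 and 279 CPM in the brain. Every brain library was below every blood library, though brain replicate 3 and sham blood replicate 3 nearly met. Against stroke blood the log2 fold change was -0.98 (SE 0.24, adjusted P = 0.0146), which passed the adjusted P-value but fell short of the fold threshold, and 8 of 16 alternative settings placed it past both thresholds. Without brain replicate 1 it was -0.74 (adjusted P = 0.0177).

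*Dusp10*, the phosphatase gene whose product prefers p38 and JNK, was not a DEG. Its level was 3.78, 3.86 and 3.10 CPM in sham blood, 3.57, 4.93 and 4.25 CPM in stroke blood, and 16.3, 3.24 and 4.36 CPM in the brain. Brain replicate 1 alone was high, and the other brain libraries lay within the range of blood. The log2 fold change against stroke blood was 0.94 (SE 0.58, adjusted P = 0.245), and -0.13 without brain replicate 1 (adjusted P = 0.828).

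The Sprouty genes, which are themselves induced by growth factor signaling in many cell types, had low counts in blood. *Spry1* had 7, 2 and 2 counts in sham blood, 9, 1 and 6 counts in stroke blood, and 55, 70 and 110 counts in the brain (2.68, 2.91 and 4.79 CPM). Of the 2906 exonic bases of *Spry1*, 710 overlap a gene on the opposite strand that had at most 1 count in any library. *Spry2* was 0.497, 3.59 and 1.60 CPM in sham blood, 1.63, 0.521 and 1.08 CPM in stroke blood, and 13.0, 26.2 and 34.9 CPM in the brain. For both genes the brain libraries stood clear of all blood libraries. The rise of *Spry2*, 23.5-fold against stroke blood, was the largest of the 9 genes in this fit (log2 fold change 4.55, SE 0.50, adjusted P = 0.000256), and that of *Spry1* was 12.3-fold (3.62, SE 0.70, adjusted P = 0.0047). *Spry2* was lowest in brain replicate 1 and highest in replicate 3. The microglia, border-associated macrophage, monocyte, T and NK cell and platelet marker sums had the same order over the brain libraries, and the part of these cells in its level was not tested.

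*Spred1*, which encodes an adaptor that brings the Ras inactivator neurofibromin to the membrane, was 8.40, 5.73 and 5.20 CPM in sham blood, 9.38, 8.72 and 15.7 CPM in stroke blood, and 25.1, 48.1 and 47.0 CPM in the brain. The 3 groups formed steps without overlap, from sham blood to stroke blood to brain. *Spred1* rose 3.65-fold from stroke blood to brain (log2 fold change 1.87, SE 0.32, adjusted P = 0.0024). *Nf1*, the gene for neurofibromin, had a log2 fold change of 0.92 (SE 0.31, adjusted P = 0.0481) and was not a DEG.

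**Figure D2:**
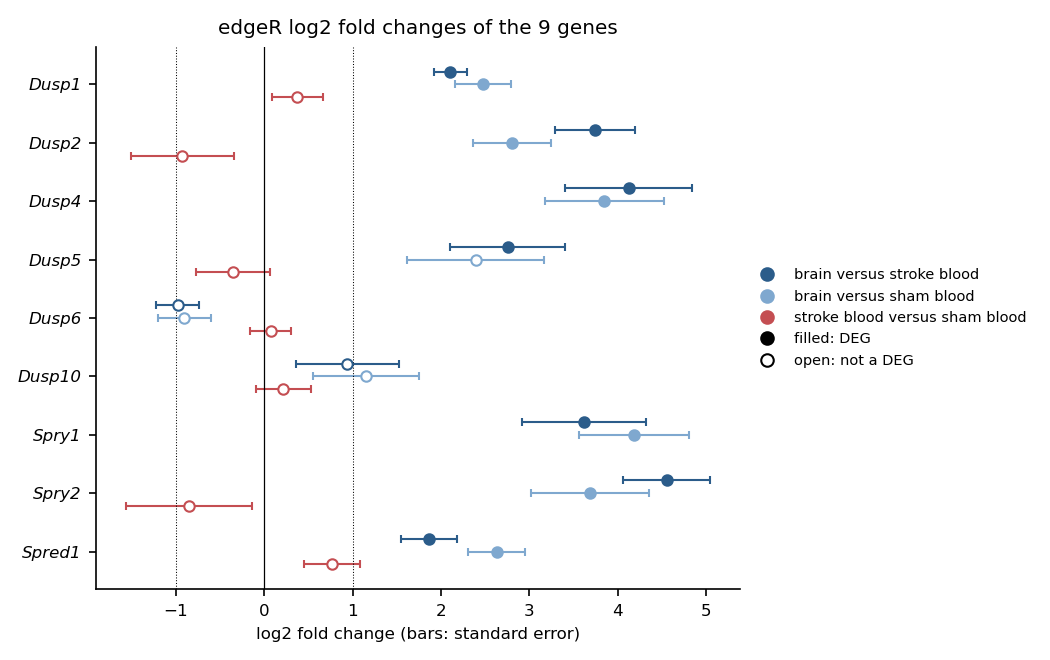
Log2 fold change of each gene (horizontal axis, points) with its standard error (bars) in the 3 comparisons, with dotted lines at -1 and 1. Filled points are DEGs, and *Dusp4* and *Spry1* were not tested between the blood groups. The points of both comparisons with the brain lie well above 1 for 7 genes (*Dusp5* is open against sham blood), just inside -1 for *Dusp6*, and the blood comparison has open points only.

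Next, the genes were compared between stroke blood and sham blood, to see whether they differed between circulating monocytes of stroke and sham mice. Of the 7 genes tested, edgeR called none a DEG and 1 had an unadjusted P-value below 0.05, and DESeq2 also called 0 of 7, again with 1 below 0.05. Over all 12664 genes tested, 0.0079% were DEGs and 12.5% had an unadjusted P-value below 0.05. The gene below 0.05 was *Spred1*, with a log2 fold change of 0.77 (SE 0.31, unadjusted P = 0.0365, adjusted P = 0.378). It was also the only one of the 9 whose blood groups did not overlap, as did not 18.1% of all genes tested. For *Dusp1* the log2 fold change was 0.37 (SE 0.29, adjusted P = 0.606), 0.78 without sham blood replicate 1 (adjusted P = 0.134) and 0.13 without sham blood replicate 3 (adjusted P = 0.88). *Dusp6* differed by 0.07 (SE 0.23, adjusted P = 0.908), *Dusp2* by -0.93 (SE 0.58, adjusted P = 0.527) and *Spry2* by -0.86 (SE 0.71, adjusted P = 0.633), and *Dusp5* and *Dusp10* had values of -0.35 and 0.22. The *Dusp2* value ranged from -1.49 without stroke blood replicate 3 to -0.19 without sham blood replicate 2. *Dusp4* and *Spry1* had at most 9 counts in any blood library and did not pass the filter on low counts in this comparison, and their difference between the blood groups was not tested.

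Sham blood replicate 1 had the highest *Dusp1* and *Dusp6* levels of its group, together with 184 CPM of the immediate early gene *Egr1*, against 11.5 and 7.52 CPM in the other sham libraries. The same library had the highest sum of 7 heat shock genes (3635 CPM, against 2148 and 1585 CPM) and the lowest erythroid and platelet marker sums. The part of these differences in the *Dusp1* level was not tested.

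Compared with sham blood, the brain libraries, which are the same as above, had 6 of the 9 genes upregulated and none downregulated, while 9.75% of the 13020 genes tested were upregulated and 3.67% downregulated. The 6 were *Dusp1* (log2 fold change 2.48, SE 0.31, adjusted P = 0.00271), *Dusp2* (2.81, SE 0.44, adjusted P = 0.00584), *Dusp4* (3.85, SE 0.67, adjusted P = 0.00834), *Spry1* (4.18, SE 0.63, adjusted P = 0.00489), *Spry2* (3.69, SE 0.67, adjusted P = 0.00932) and *Spred1* (2.63, SE 0.32, adjusted P = 0.00226). *Dusp5* had a log2 fold change of 2.39 but missed the threshold (SE 0.77, adjusted P = 0.066), and was 1.04 without brain replicate 1 (adjusted P = 0.169). *Dusp6* was at -0.91 (SE 0.30, adjusted P = 0.0723) and *Dusp10* at 1.15 (SE 0.60, adjusted P = 0.219), or 0.08 without brain replicate 1 (adjusted P = 0.897). As in the comparison with stroke blood, *Dusp4* and *Spry1* passed the filter only through their brain libraries. The count of 6 was the same without sham blood replicate 1 and without brain replicate 1. Both comparisons share the brain libraries, so their similarity is not independent evidence.

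To compare genes with each other, levels were divided by the length of their exons in kb. In stroke blood *Dusp1* (286 ± 46.7 CPM per kb) and *Dusp6* (137 ± 16.8) stood far above *Dusp5* (8.79 ± 2.49) and *Dusp2* (5.88 ± 3.88), which overlapped each other. Sham blood had the same leading pair, at 215 ± 93.6 and 127 ± 38 CPM per kb, but with overlapping libraries. In the brain *Dusp1* reached 1199 ± 191 CPM per kb, followed by *Dusp2* (75.9 ± 4.28), *Dusp6* (67.9 ± 22.9) and *Dusp5* (57.7 ± 60.6), neighbors that overlapped in this order. *Spry2* (11.8 ± 5.30) and *Spred1* (5.90 ± 1.91 CPM per kb) came next there, and *Dusp4* had the lowest mean in every group, where it overlapped *Spry1*.

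The makeup of the phosphatase mRNA pool is given as a description, since it was computed after the levels were seen. *Dusp1* made up 57.9% ± 5.66 of the summed CPM per kb of the 6 phosphatase genes in sham blood, 64.9% ± 5.30 in stroke blood and 85.0% ± 4.91 in the brain. The share of *Dusp6* was 35.2% ± 1.71, 31.4% ± 5.73 and 4.76% ± 1.21 (SD, n = 3 each). The sum itself was 365 ± 127, 438 ± 36.8 and 1404 ± 149 CPM per kb. For *Dusp1* the count per *Dusp6* count, a ratio that needs no scaling of libraries, was 1.66, 1.29 and 1.32 in sham blood, 1.80, 1.38 and 2.33 in stroke blood, and 19.2, 15.9 and 12.6 in the brain. The lowest brain ratio was thus well above the highest ratio in blood.

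**Figure D3:**
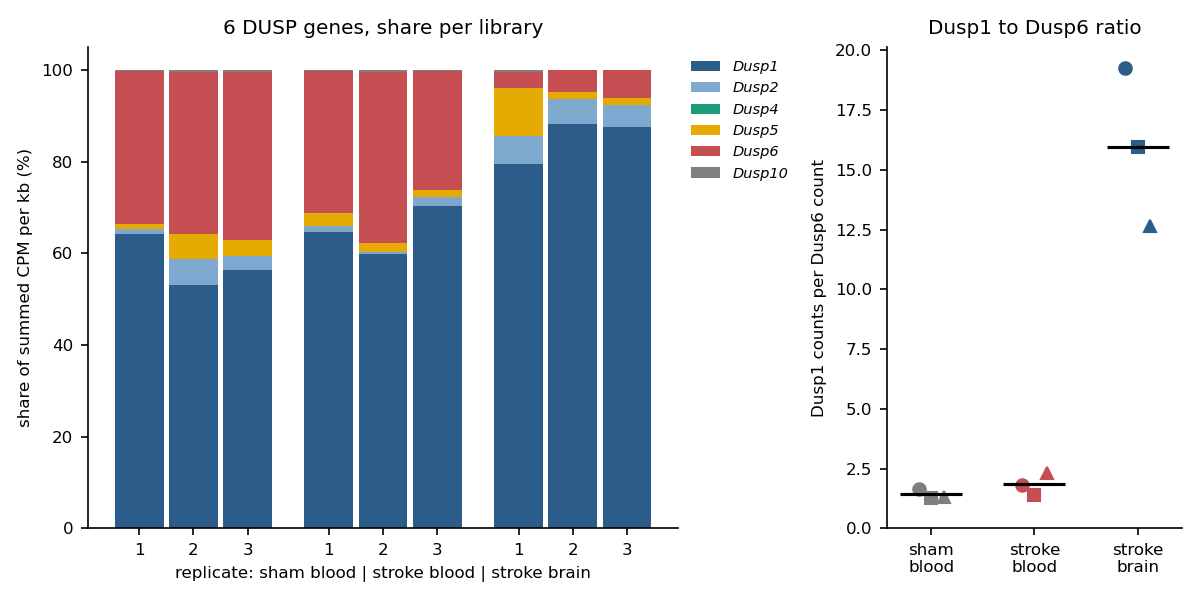
Left, share (%) of each of 6 phosphatase genes in their summed CPM per kb in each library, with bars stacked to 100%. Right, *Dusp1* counts per *Dusp6* count in each library (symbols as replicates 1 to 3, lines as group means of 1.42, 1.84 and 15.9). *Dusp6* takes 26.0% to 37.4% of the sum in blood and 3.55% to 5.97% in the brain.

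The 3 brain pools were not alike in these genes. Relative to the mean of replicates 2 and 3 on the log2 scale, replicate 1 was 2.49 higher for *Dusp5* and 2.09 higher for *Dusp10*, and 0.584% and 1.12% of the 13189 genes tested were at least as high. *Dusp4* was 0.93 higher, *Dusp2* differed by -0.0037, and *Dusp1* (-0.42), *Spry1* (-0.47), *Dusp6* (-0.86), *Spred1* (-0.92) and *Spry2* (-1.22) were lower. Over all genes tested, 8.53% were at least 2-fold higher in this pool and 6.63% at least 2-fold lower. All 8 microglia markers were lower in it as well, and the part of cell composition in these differences was not tested.

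**Figure D4:**
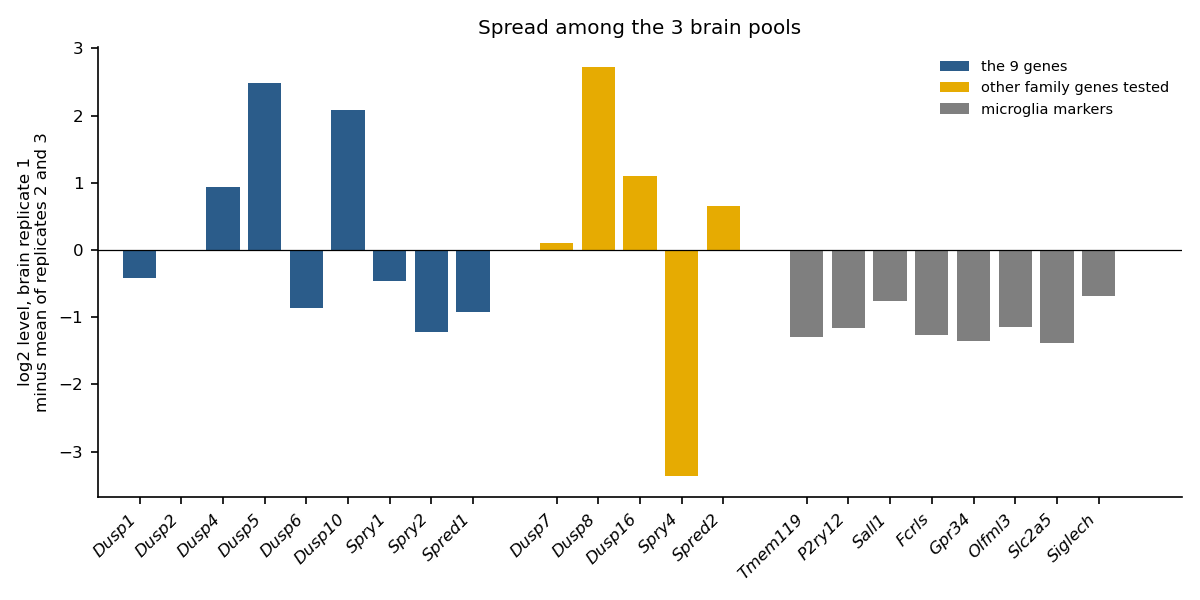
Log2 level in brain replicate 1 minus the mean of brain replicates 2 and 3 (vertical axis) for the 9 genes (blue), the 5 other family genes tested (yellow) and 8 microglia markers (gray). *Dusp5*, *Dusp10* and *Dusp8* stand above 2, and every microglia marker is below 0.

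Of the 8 remaining genes of the family, 7 were found and 5 passed the filter on low counts, of which 1 was upregulated in brain versus stroke blood. *Dusp8*, a phosphatase gene for p38 and JNK, had 0, 0 and 5 counts in stroke blood and 110, 14 and 21 counts in the brain (log2 fold change 4.60, SE 1.33, adjusted P = 0.0276), with brain replicate 1 again the highest. *Dusp8* passed the filter only through its brain libraries, so its call was partly set by the filter. It was no longer a DEG without that pool (2.99, adjusted P = 0.104), without stroke blood replicate 1 (3.98, adjusted P = 0.102) or without stroke blood replicate 2 (3.96, adjusted P = 0.0968). *Dusp7*, the closest relative of *Dusp6*, was 28.7, 17.4 and 40.3 CPM in stroke blood and 14.9, 13.8 and 13.8 CPM in the brain (log2 fold change -0.98, SE 0.28, adjusted P = 0.028), short of the fold threshold as *Dusp6* was in this comparison. Against sham blood, the brain value of *Dusp7* was -0.06 (adjusted P = 0.906), and stroke blood versus sham blood gave 0.93 (adjusted P = 0.339). *Dusp16* (0.80, SE 0.36, adjusted P = 0.119), *Spred2* (0.64, SE 0.45, adjusted P = 0.31) and *Spry4* (1.56, SE 1.31, adjusted P = 0.396) were not DEGs. *Spry4* had 0, 32 and 14 counts in brain replicates 1, 2 and 3.

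The atypical dual-specificity phosphatases, many of which have targets other than MAP kinases, had 1 of 10 tested genes upregulated (*Dusp3*, 1.23, adjusted P = 0.000436) and 3 downregulated. Those 3 were *Dusp18* (-1.99, adjusted P = 0.00213), *Dusp23* (-1.42, adjusted P = 0.0138) and *Dusp22* (-1.15, adjusted P = 0.000467), and the median log2 fold change of the list was -0.61. *Dusp3* was 71.3, 75.9 and 90.3 CPM in stroke blood and 182, 184 and 178 CPM in the brain. Against sham blood 0 of the 10 were upregulated and 2 were downregulated, with *Dusp3* at 0.65 (adjusted P = 0.016), short of the fold threshold.

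Among the kinases on which these proteins act, edgeR called 0 of 15 MAP kinase and MAP2K genes tested a DEG in brain versus stroke blood. Of the 15, 3 had an unadjusted P-value below 0.05, as had 5563 of all 13189 genes tested. DESeq2 called 0 of 16, with 4 below 0.05, as were 6211 of all 24197 genes. The DESeq2 totals include any gene without an adjusted P-value. The median log2 fold change of the list was -0.03 in edgeR. In the same comparison 5 of 16 genes from Ras to Raf were upregulated, among them *Hras* (1.60, adjusted P = 0.00177) and *Rasa2* (1.42, adjusted P = 0.00322), and none was downregulated. *Hras* was 11.4, 7.58 and 14.5 CPM in stroke blood and 29.2, 36.9 and 32.8 CPM in the brain. Against sham blood 3 of the 16 were upregulated and 1 was downregulated, and *Hras* was not a DEG (1.16, adjusted P = 0.0668). Among 9 kinases activated by MAP kinases, *Rps6ka2* was upregulated (1.36, adjusted P = 0.00901) and *Rps6ka3* downregulated (-1.39, adjusted P = 0.037). The call for *Rps6ka3* held in 1 of the 6 fits that each leave out a library, the one without brain replicate 1, with values of -2.02 to -1.07. None of the 9 was a DEG against sham blood, with *Rps6ka2* at 0.73 (adjusted P = 0.212) and *Rps6ka3* at -0.64 (adjusted P = 0.318).

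Of 23 immediate early genes, which MAP kinase activity is known to induce, 14 were upregulated and 1 was downregulated against stroke blood (median log2 fold change 1.94). The largest rises were those of *Egr2* (5.20, adjusted P = 0.000339), *Fosl1* (5.13, adjusted P = 0.00015) and *Egr1* (4.79, adjusted P = 1.14e-05), and *Klf2* fell by 1.44 (adjusted P = 0.025), a call that held in 2 of the 6 fits that each leave out a library, those without stroke blood replicate 2 or brain replicate 1. *Fosl1* and *Egr3* did not pass the filter on low counts between the blood groups. The place of *Fosl1* here, and of both genes among those upregulated against sham blood, was thus partly set by their brain libraries. Against sham blood 12 of the 23 were upregulated and 1 was downregulated, and *Egr1* was not a DEG (2.92, SE 1.12, adjusted P = 0.107). As given above, *Egr1* was far higher in sham blood replicate 1 than in the other sham libraries, and no fit without that library is given. Of 8 ERK output genes tested, 5 were upregulated and none was downregulated (median 3.23), among them *Ccnd1*, which encodes cyclin D1 (4.58, adjusted P = 0.000116), and the ETS factor gene *Etv5* (4.02, adjusted P = 4.3e-05). *Etv5* was 2.55, 2.09 and 1.5 CPM in stroke blood and 23.3, 36.5 and 38.3 CPM in the brain. *Epha2*, with 1, 0 and 0 counts in stroke blood and 352, 203 and 180 counts in the brain, was at least 70.4-fold higher when 3 counts per stroke blood library are taken as the floor (adjusted P = 7.03e-05). It passed the filter on low counts only through its brain libraries, so its place among the 5 was partly set by the filter. The list also had 5 of 8 upregulated against sham blood. *Dusp6*, which is commonly read together with *Etv5*, *Spry2* and *Spred1* as an ERK output gene, differed from them in direction. Growth factor receptor genes had 3 of 10 tested upregulated (*Kit*, 5.51, adjusted P = 0.00136, *Fgfr1*, 2.43, adjusted P = 0.0177, and *Flt3*, 1.02, adjusted P = 0.0178) and none downregulated. Without stroke blood replicate 1 or 3 neither *Fgfr1* (2.12 and 2.03) nor *Flt3* (0.92 and 0.80) was a DEG, and *Flt3* was also at 0.88 without brain replicate 1. Of the 10, 2 were upregulated against sham blood, where *Flt3* was at 0.86 (adjusted P = 0.0339), short of the fold threshold. Between stroke blood and sham blood, edgeR called 0 of 90 tested genes of these 8 lists a DEG and 8 had an unadjusted P-value below 0.05, and DESeq2 called 0 of 105, with 9 below 0.05. The 105 include any listed gene that DESeq2 gave no adjusted P-value, which cannot be called. Over all genes there, 11529 of 23335 had one.

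**Figure D5:**
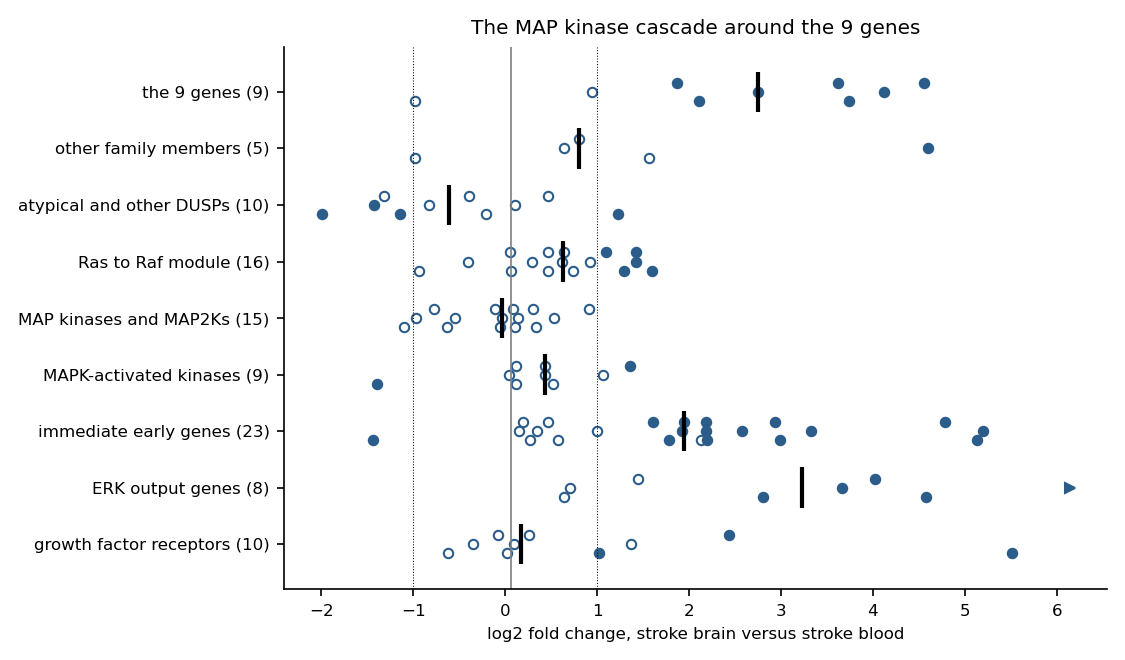
Log2 fold change in brain versus stroke blood (horizontal axis) of each tested gene in 9 lists (rows, with the number tested in parentheses). Filled points are DEGs, black bars list medians, the gray line the median of all genes (0.06) and dotted lines -1 and 1. The triangle is *Epha2* at its lower bound of 6.14. Medians run from -0.61 for the atypical phosphatases to 3.23 for the ERK output genes, with the 9 genes at 2.76.

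Genes with the most similar pattern were sought for each of the 9 genes by Pearson's r of log2 CPM over the 9 libraries, among 7927 genes with a mean log2 CPM above 3. This is a description without a test, since the libraries form 3 groups of 3 and share those groups' differences. Closest to *Dusp1* were *Junb* (r = 0.979), *Vav2* (0.977) and *Clec10a* (0.977), and *Junb* and *Vav2* were also among the closest to *Spry1* (0.965 and 0.979), along with *Ccl2* (0.964). *Dusp1* itself was among the 3 closest to *Spred1* (0.976), after *Abhd17c* (0.983) and *Dnajc8* (0.976). *Dusp2* was followed by *Wsb2* (0.984), *Nktr* (0.982) and *Tsc22d2* (0.980), and *Spry2* by *Phgdh* (0.990), *B4galt7* (0.979) and *Pdk1* (0.977). *Dusp4* was closest to *Clk4* (0.992), *Impact* (0.990) and *Acss1* (0.982). *Dusp5* and *Dusp10*, which were far higher in brain replicate 1 than in the other brain pools, had other neighbors. These were *Sh3bp4* (0.952), *Rel* (0.948) and *Ptprs* (0.946) for *Dusp5*, and *Dgkz* (0.967), *Sh2b1* (0.957) and *Tob2* (0.947) for *Dusp10*. *Dusp6*, the only gene of the 9 that was lower in every brain library than in every blood library, was closest to *Hhex* (0.964), *Zfp758* (0.961) and *BC147527* (0.961).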

How the data were processed

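Monocytes/macrophages of 3 sham blood, 3 stroke blood and 3 stroke brain libraries were profiled by RNA-seq. cDNA was made with the SMART-Seq HT kit. The authors used HISAT2 (genome GRCm38) and HTSeq to obtain raw counts per gene, which are deposited without normalization. Versions, annotation release and strand setting are not given in the sources used here. Symbols and exons were taken from GENCODE M21, with exons cut to the deposited gene spans. At 18475118 to 22623578 counts per library, the 3-count floor takes in only counting error, since PCR was used without molecular identifiers.

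DEGs were called between each pair of groups by the quasi-likelihood test of edgeR 4.0.16 (R 4.3.3) after TMM and its default filter on low counts, with no block. The standard error is the log2 fold change over the square root of F. Tables and figures used Python 3.11.15, and the test was checked on simulated data. In a simulation of brain versus stroke blood, it recovered 129 of 200 genes with a log2 fold change of 2 in either direction. It made 8 false calls, and a gene that is not a DEG may still differ. DESeq2 1.42.0, other scalings, filters and thresholds, a single fit, a replicate block and leaving out each library were the alternatives. CPM per kb understates genes whose transcripts use fewer exons.

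The 9 genes and the lists were chosen with earlier results of these data known. The text names the 9 genes, every tested gene of the remaining family, up to 3 DEGs with the largest rises and falls of each list, and for each gene its 3 nearest patterns. *Nf1* and list genes outside this rule were chosen after values were seen, as were the shares and ratios. Values of a few list genes are not reported here.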

Additional observations from a re-analysis of the deposited data

How the results depend on the processing

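The log2 fold changes of the 9 genes kept direction and call in 328 alternative fits, gained a call in 10, lost it in 2 and turned direction in 5. Those that turned direction were not DEGs in that comparison under any setting: *Dusp10* in brain versus stroke blood without stroke brain replicate 1 (-0.13, with -0.13 to 1.33 over the 6 libraries left out in turn), and in stroke versus sham blood *Dusp5* (0.31, range -0.68 to 0.31) and *Spry2* (0.0021, range -1.31 to 0.0021) without sham blood replicate 2, and *Dusp6* (range -0.13 to 0.32) without sham blood replicate 3 (-0.13) or stroke blood replicate 2 (-0.07). The number of the 9 genes downregulated in brain versus stroke blood was 0, but 1 (*Dusp6*) with RLE, with upper-quartile normalization, with all 9 libraries in a single fit and without a fold threshold, and 0 to 1 when each library was left out, where the number upregulated was 6 to 7. *Dusp5* in brain versus sham blood became a DEG without the filter on low counts (2.37) and with all 9 libraries in a single fit (2.39). Scaling to library totals alone shifted the median of all genes by 0.15 in brain versus stroke blood and 0.12 in brain versus sham blood, and upper-quartile normalization by -0.15 in the former. Library totals alone also gave 163 CPM for *Dusp2* in the brain.

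Same-numbered libraries did not deviate together (correlations of -0.07 to 0.07, against -0.08 to 0.115 for pairs with different numbers). With 3 libraries per group, this could not settle whether the replicate numbers pair the samples. With the replicate block, DEGs changed from 2771 to 2634 in brain versus stroke blood, where 1 of the 9 genes (*Dusp6*, -1.03) was then downregulated, and from 1748 to 1571 in brain versus sham blood, and stroke versus sham blood had 0 upregulated and 1 downregulated.

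Over all genes, downregulated DEGs in brain versus stroke blood were 1037, but 598 at an adjusted P-value below 0.01 and 1727 without a fold threshold (725 to 1247 with a library left out, and 1502 to 1767 upregulated). In brain versus sham blood the 1270 upregulated DEGs became 610 at 0.01 and 869 to 1214 with a library left out, and the 478 downregulated became 182 at 0.01, 1000 without a fold threshold and 277 to 669. Stroke versus sham blood had 1 upregulated and 0 downregulated DEGs, with 0 upregulated at 0.01, 59 and 101 without the filter on low counts, 65 and 68 with DESeq2, and 0 to 1 and 0 to 15 with a library left out. The cause of these changes was not tested, apart from the thresholds themselves. A mean of at least 50 counts removes *Dusp4* and *Spry1*, so their values rest on low counts in blood.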

Other observations

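*Fos*, an immediate early gene, was set beside *Dusp1* after values were seen. The number of *Dusp1* counts per *Fos* count was 0.598, 0.501 and 0.565 in sham blood, 0.605, 0.754 and 0.700 in stroke blood, and 1.43, 0.886 and 0.829 in the brain, where replicate 1 had the lowest *Fos* level (1843 CPM, against 3986 and 4257 CPM). Every brain ratio lay above every blood ratio. No test is given for a ratio chosen this way.

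Glucocorticoid-induced genes, a list that is relevant since *Dusp1* is also known to respond to glucocorticoids, had 3 of 6 upregulated in brain versus stroke blood, namely *Fkbp5* (log2 fold change 2.26, adjusted P = 0.000225), *Sgk1* (1.95, adjusted P = 0.000321) and *Klf9* (1.68, adjusted P = 0.013), the last of which was not a DEG without stroke blood replicate 2 (1.45, adjusted P = 0.0587). *Tsc22d3*, the list's most abundant gene in blood, was lower in the brain but short of the fold threshold (-0.94, adjusted P = 0.00532), and was downregulated against sham blood (-1.17, adjusted P = 0.00506). *Fkbp5* was 15.5, 27.3 and 28.1 CPM in sham blood, 5.76, 5.78 and 6.64 CPM in stroke blood, and 22.2, 28.6 and 34.1 CPM in the brain. Its log2 fold change was 0.26 in brain versus sham blood (adjusted P = 0.538) and -1.99 in stroke blood versus sham blood (adjusted P = 0.15), neither of which passed the test. Of 6 heat shock genes tested, *Hspa1a* alone was upregulated (2.75, adjusted P = 0.000475), at 6.93, 6.02 and 10.1 CPM in stroke blood and 67.5, 28.8 and 54.2 CPM in the brain. *Hsph1* (0.99, adjusted P = 0.00706) and *Dnajb1* (0.75, adjusted P = 0.0149) passed the adjusted P-value but not the fold threshold, and the list median was 0.87. None of the 6 was a DEG against sham blood, where *Hspa1a* was at 1.96 (adjusted P = 0.0509). Sham blood replicate 1 had the highest sum of the heat shock genes, and no fit without that library is given for them. The part of either response in the levels of the 9 genes was not tested.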
